A study of Homo sapiens with 20 samples.

Results

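The open chromatin of ANKRD1 and AMOTL2 was examined in SW872 cells, an established human liposarcoma line, by ATAC-seq, which reads accessible DNA from where a transposase can insert adapters. The members were the peaks that lay in hg19 within a window reaching about 50 kb to either side of each gene, from 92622000 to 92731000 on chromosome 10 for ANKRD1 and from 134025000 to 134144000 on chromosome 3 for AMOTL2. These windows held 339 of the 1407450 peaks of all 7 lists, 74 around ANKRD1 and 265 around AMOTL2. Every list stood for 1 vector, carried by stably transduced cells. The vectors were the empty vector (EV), TAZ4SA and YAP5SA, which encode full-length TAZ and YAP with serine-to-alanine changes that shield them from inhibition by the Hippo kinases, full-length CAMTA1, full-length TFE3, and 2 gene fusions, TAZ-CAMTA1 and YAP-TFE3. The library titles of the last group name Yap5SA as its YAP part. The groups had 3 libraries each, except TFE3 with 2, and 1 of the EV libraries is titled a redo. According to the methods of the study the cells were pools selected after retroviral transduction. They are not endothelial, whereas the fusions arise in epithelioid hemangioendothelioma, a vascular sarcoma. With 1 list for a vector, the values have no replicate error and no difference between vectors was tested. The number of reads behind a list is unknown, and fewer cells with an open site cannot be told apart from a less open site in each cell.

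YAP and TAZ are the transcriptional coactivators held in check by the Hippo pathway. They do not bind DNA themselves and reach their targets mostly through the TEAD transcription factors, often at enhancers shared with AP-1. ANKRD1 encodes an ankyrin repeat protein of muscle sarcomeres and nuclei that is induced by YAP and TAZ in many cell types. AMOTL2 encodes an angiomotin family scaffold of cell junctions that binds YAP and TAZ and restrains them, so that it is both a target and a feedback inhibitor. TAZ-CAMTA1 and YAP-TFE3 keep the TEAD-binding part of TAZ or YAP and join it to a DNA-binding partner.

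Both genes had a TEAD core motif close to a start. The genes were found in the RefSeq promoter windows (GRCh38.p14), which hold 250 bases before a start and 50 after it, with 1 window for ANKRD1 and 2 for AMOTL2. The windows below are shown because they hold the TEAD matches, and capitals mark the TEAD core CATTCC or its reverse complement GGAATG. Which of the 2 AMOTL2 starts lies nearer to the start taken in hg19 was not determined. The ANKRD1 window is chr10:90921038-90921337 and the AMOTL2 window chr3:134374398-134374697, both on the minus strand and written 5′ to 3′ along the gene.
ANKRD1: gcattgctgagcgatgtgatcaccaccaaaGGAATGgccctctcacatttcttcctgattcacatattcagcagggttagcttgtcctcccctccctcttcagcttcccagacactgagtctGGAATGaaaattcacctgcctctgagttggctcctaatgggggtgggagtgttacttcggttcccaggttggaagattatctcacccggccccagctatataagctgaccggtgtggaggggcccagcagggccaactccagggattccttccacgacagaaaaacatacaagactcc
AMOTL2: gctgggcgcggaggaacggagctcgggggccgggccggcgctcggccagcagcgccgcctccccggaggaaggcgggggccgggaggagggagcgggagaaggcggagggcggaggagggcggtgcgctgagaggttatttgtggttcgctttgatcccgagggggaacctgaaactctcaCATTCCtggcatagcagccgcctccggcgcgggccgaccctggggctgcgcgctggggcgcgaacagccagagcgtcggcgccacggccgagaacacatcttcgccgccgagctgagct
ANKRD1 had 2 matches to the TEAD core, 220 and 128 bases before the start, whereas 1.37% of 35116 promoter windows held 2 or more and 14.0% held at least 1. It also had the sequence TGATTCA 195 bases before the start, a match to the AP-1 motif TGANTCA, which 7.71% of the windows held. The AMOTL2 window had 1 TEAD match, 69 bases before the start. The other AMOTL2 window, whose start lies 970 bases further upstream, held no match to any motif searched. Neither gene had a match to the E-box CACGTG bound by TFE3 and its relatives (7.26% of windows), to the CArG box (1.29%) or to TATAAA (11.5%). Only the exact string TATAAA was searched for the TATA box. The ANKRD1 window holds the related string TATATAAG, so the lack of a match does not mean that a TATA box is absent. The starts also differed in composition. The ANKRD1 window had 5 CpG dinucleotides and a GC content of 52.7%, against 37 and 72.7% in the AMOTL2 window shown and medians of 14 and 58.7% over all windows. Both strands were searched. A match is a string of letters, and the peaks, which are in hg19, were not aligned to these sequences.

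The ANKRD1 start carried a broad peak in 5 lists and was barely called in EV and TAZ-CAMTA1. The value attached to a peak here is its area, as deposited, which is the height of the caller's statistic above its threshold summed along the peak. At the start site, from 92680784 to 92681471, the EV list had a peak of 82 bp with an area of 46.7 and a summit −log10 p of 3.97. The TAZ-CAMTA1 list was nearly as low, with 213 bp, an area of 60.4 and a summit of 4.03. The TAZ4SA peak spanned 643 bp, with an area of 1361 and a summit of 7.84. The YAP5SA peak was the largest, with 688 bp, an area of 2150 and a summit of 8.88. The lists of full-length CAMTA1 and TFE3 lay between these, with areas of 524 and 418, widths of 606 and 622 bp and summits of 5.64 and 5.24. The YAP-TFE3 peak had 629 bp, an area of 790 and a summit of 6.28. The 5 broad peaks were thus 606 bp wide or more, and those of EV and TAZ-CAMTA1 were short and close to the calling threshold. In the EV list 27.7% of all peaks had a smaller area than the one at this start and in the TAZ-CAMTA1 list 29.3%, against 88.7% in TAZ4SA, 90.1% in YAP5SA, 72.7% in CAMTA1, 69.7% in TFE3 and 76.8% in YAP-TFE3.

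**Figure D1:**
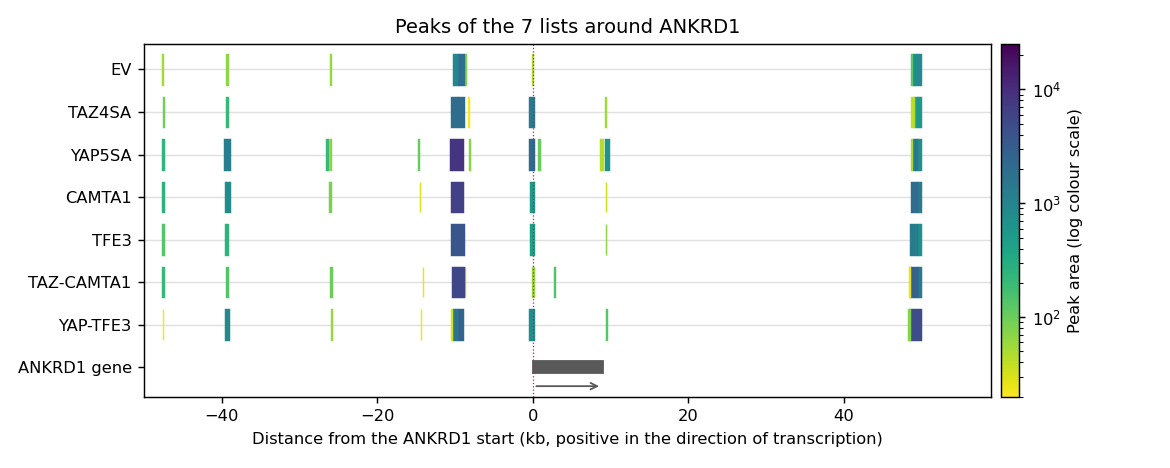
Peaks of the 7 lists in the ANKRD1 window, plotted by distance from the gene start in kb, with 1 row per list and colour giving the area of each peak on a log scale. The peak at the start is wide in 5 lists and narrow and pale in EV (area 46.7) and TAZ-CAMTA1 (area 60.4), while the site 9.8 kb upstream is dark in all 7.

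Since the lists differed in the general level of their areas, the area of a site was divided by the median area of the list over the 60372 sites with a peak in all 7 lists. These medians ran from 478 in TAZ4SA to 2189 in YAP-TFE3. On this scale the ANKRD1 start was 46.6 times the EV value in TAZ4SA and 26.4 times in YAP5SA. Among all sites with a peak in both lists, 22.2% were at least 2-fold above EV in TAZ4SA and 17.2% in YAP5SA, but only 0.172% and 0.374% had a ratio as high as that of the ANKRD1 start. The ratio was 7.28 for TFE3, against a background of 13.8% past 2-fold and 1.00% as high. It was 5.91 for YAP-TFE3, with 17.6% past 2-fold and 3.08% as high, and 4.50 for CAMTA1, with 15.9% and 4.32%. For TAZ-CAMTA1 it was 0.470. In that list 17.9% of sites lay at least 2-fold above EV and 13.8% at or below 1/2 of it, and 87.9% had a ratio at least as high as the ANKRD1 start. The direction for TAZ-CAMTA1 depended on the scaling, since the areas as deposited gave 1.29. All 6 ratios share the EV peak, whose summit of 3.97 was not far above the lowest summit of that list, 3.28. Its area of 46.7 was also low, where the lowest of the list was 20.0. The background shares cover sites of any EV area, and a high ratio is easier to reach from a small EV area. By the summit −log10 p the ratios to EV were 1.98 for TAZ4SA, 2.24 for YAP5SA and 1.02 for TAZ-CAMTA1.

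The fusions were then set against the full-length proteins, without the EV list. The scaled area of the ANKRD1 start in TAZ-CAMTA1 was 0.0101 of that in TAZ4SA, and the area as deposited was 0.0444 of it. Of 79422 sites with a peak in both lists, 31.9% were at or below 1/2 of the TAZ4SA value and 0.149% were as low as the ANKRD1 start. Against CAMTA1 the TAZ-CAMTA1 value was 0.104, or 0.115 as deposited, with 12.5% of 139949 sites at or below 1/2 and 0.625% as low. The TAZ-CAMTA1 peak was itself close to the threshold, with an area of 60.4 where the lowest of the list was 20.0. Area is counted above the threshold, so the size of these ratios is uncertain. By summit −log10 p the gap was smaller, with 4.03 in TAZ-CAMTA1 against 7.84 in TAZ4SA and 5.64 in CAMTA1. YAP-TFE3 had 0.224 of the YAP5SA value, or 0.368 as deposited, a scaled ratio that 7.77% of 118127 sites reached, with 20.0% at or below 1/2. Against TFE3 the YAP-TFE3 value was 0.812, where 9.03% of 107121 sites were at 1/2 or less, and its direction turned with the areas as deposited, at 1.89. On both area scales each fusion lay past 2-fold below its full-length YAP or TAZ protein at the ANKRD1 start. At the AMOTL2 start the scaled area of TAZ-CAMTA1 was 0.408 of that in TAZ4SA, but the areas as deposited turned this to 1.80, and the 3 other pairs lay between 0.816 and 0.874 when scaled.

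A strong site upstream of ANKRD1 behaved otherwise. It lay 9.8 kb upstream of the start, from 92689896 to 92691641, and its area was 2905 in EV, 4136 in TAZ4SA, 8228 in YAP5SA, 6550 in CAMTA1, 3760 in TFE3, 5416 in TAZ-CAMTA1 and 4116 in YAP-TFE3. It was thus well above the threshold in each list, EV and TAZ-CAMTA1 included. Its summit lay within 30 bp in the 7 lists, against a median spread of 134 bp over all sites with a peak in each list. Scaled to EV, the site was 2.28 in TAZ4SA, 1.62 in YAP5SA, 1.05 in TFE3, 0.904 in CAMTA1, 0.677 in TAZ-CAMTA1 and 0.495 in YAP-TFE3, the last value being 1.42 with the areas as deposited. Because both sites come from the same list, the area of the start can be read as a share of the upstream area with no scaling. Area is counted above the calling threshold, so the share of a start close to it still depends on the unknown depth of the list. The start had 1.61% of the upstream area in EV and 1.12% in TAZ-CAMTA1. It had 32.9% in TAZ4SA, 26.1% in YAP5SA, 19.2% in YAP-TFE3, 11.1% in TFE3 and 8.0% in CAMTA1. EV and TAZ-CAMTA1 were again the lowest, and TAZ4SA and YAP5SA the highest, but these shares reuse the start areas given above.

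**Figure D2:**
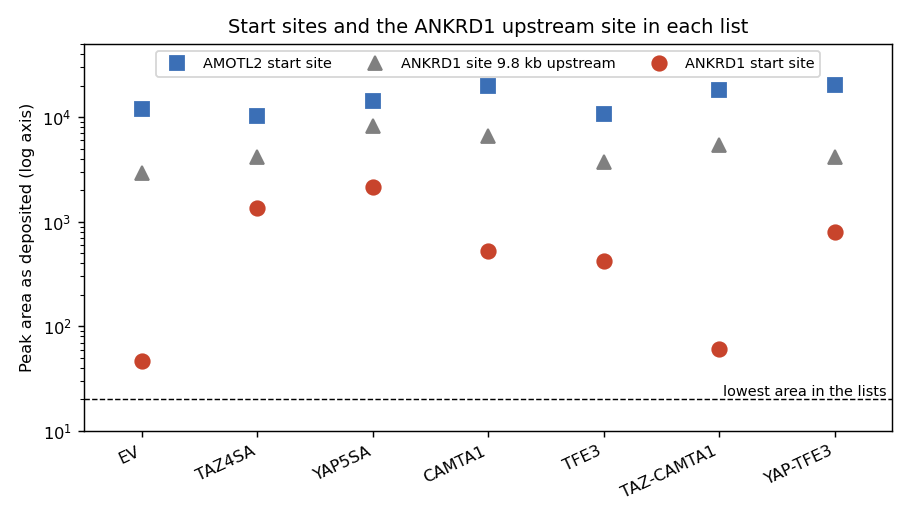
Area as deposited, on a log axis, of the ANKRD1 start site, the ANKRD1 site 9.8 kb upstream and the AMOTL2 start site in each of the 7 lists; the dashed line is the lowest area in the lists. The ANKRD1 start ranges from 46.7 to 2150, while the AMOTL2 start stays between 10164 and 20459.

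Some weaker ANKRD1 sites had the same low lists, and others did not. A site 39.4 kb upstream, from 92719957 to 92720754, had areas of 66.5 in EV and 140 in TAZ-CAMTA1, against 212 in TAZ4SA, 247 in TFE3, 803 in CAMTA1, 865 in YAP-TFE3 and 1176 in YAP5SA. Its scaled ratio to EV was 10.1 in YAP5SA, 5.09 in TAZ4SA, 4.85 in CAMTA1, 4.54 in YAP-TFE3, 3.03 in TFE3 and 0.764 in TAZ-CAMTA1. A site 9.6 kb downstream of the start, just beyond the far end of the gene, from 92671124 to 92671697, had no peak in EV or TAZ-CAMTA1. Its area was 616 in YAP5SA, 131 in YAP-TFE3, 68.6 in TFE3, 55.6 in TAZ4SA and 34.0 in CAMTA1, so that only the YAP5SA peak was far above the threshold. Other weak sites went the other way. The site 8.7 kb upstream had a peak only in EV, with an area of 70.6, and in TAZ-CAMTA1, with 36.0. The site 26.0 kb upstream had areas of 61.1 in EV and 99.1 in TAZ-CAMTA1 but no peak in TAZ4SA or TFE3. EV and TAZ-CAMTA1 had the 2 lowest scaled areas at 2 of the 5 ANKRD1 sites with a peak in all lists, an order found at 6.48% of such sites in the genome. TAZ4SA and YAP5SA had the 2 highest at 4 of these 5, against 12.8% in the genome, and both orders held at 2 of the 5, the start and the site 39.4 kb upstream, against 3.58%. Both orders are those of the start and were set after the peaks had been seen, so the start meets them by construction. The lead of TAZ4SA rests on the scaling. With areas as deposited TAZ4SA and YAP5SA were the 2 highest at 1 of the 5 sites, the start, against 1.47% in the genome, while EV and TAZ-CAMTA1 were still the 2 lowest at 2, against 1.21%.

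The remaining large sites of the window were more even or lay at its edges. The site 49.3 kb downstream, from 92631053 to 92632400, lies toward RPP30, the next coding gene on that side in RefSeq, which encodes a subunit of ribonuclease P. The start of RPP30 was not read in hg19, so whether the site lies at that start is not known. The areas of the site ran from 1189 in TAZ4SA to 4948 in YAP-TFE3, and its scaled ratio to EV from 0.714 in YAP5SA to 1.07 in TAZ4SA, or from 0.668 in TAZ4SA to 2.78 in YAP-TFE3 as deposited. Among the 5 ANKRD1 sites with a peak in all lists this one had the narrowest range of scaled ratios. The site 47.6 kb upstream was weak in every list, with areas from 22.5 in YAP-TFE3 to 256 in CAMTA1. Of the 19 sites of the ANKRD1 window, 10 had a peak in 1 list only (52.6%, against 42.3% of all sites), and 5 had a peak in all 7 (26.3% against 16.2%). There were 10 sites with a peak in TAZ4SA, YAP5SA or a fusion and in none of EV, CAMTA1 and TFE3 (52.6%, against 41.6% of all sites), with areas from 21.4 to 207. Of these, 5 belonged to YAP5SA alone, among them peaks 26.5 and 14.7 kb upstream and a peak of 164 bp that begins within 1 kb of the start. The share of YAP5SA alone among such sites of the genome was not computed. TAZ-CAMTA1 alone had a peak 2.8 kb inside the gene, from 92678137 to 92678248, with an area of 144.

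The AMOTL2 start was among the most accessible sites of every list. The start site, from 134091257 to 134094722, reached about 3 kb into the gene. Its area was 11951 in EV, 10164 in TAZ4SA, 14271 in YAP5SA, 19988 in CAMTA1, 10758 in TFE3, 18272 in TAZ-CAMTA1 and 20459 in YAP-TFE3. Its largest peak outranked 99.5% of all peaks in EV, the lowest rank of the 7, and 99.8% in CAMTA1, the highest. No list was past 2-fold from EV. The scaled ratios were 1.36 in TAZ4SA, 0.732 in TFE3, 0.684 in YAP5SA, 0.671 in CAMTA1, 0.598 in YAP-TFE3 and 0.555 in TAZ-CAMTA1. Their direction rests on the scaling, since the areas as deposited put TAZ4SA, at 0.850, and TFE3 below EV and the other 4 lists above it. The area of the ANKRD1 start was 0.391% of that of the AMOTL2 start in EV, 0.331% in TAZ-CAMTA1, 2.62% in CAMTA1, 3.86% in YAP-TFE3, 3.88% in TFE3, 13.4% in TAZ4SA and 15.1% in YAP5SA. The lists fell into separate positions for the AMOTL2 summit. It lay at 134093275 in EV and 134093293 in TAZ4SA. In the 5 remaining lists the summits lay within 9 bp of each other, at 134093847 in YAP5SA, CAMTA1 and TFE3, 572 bases from the EV summit. The start taken here is accurate to about 1 kb, and RefSeq has AMOTL2 starts 970 bases apart. Which summit lies nearer to a start is therefore not known. A second site at the start, from 134094902 to 134095085, was weak, with areas of 102 in CAMTA1, 65.9 in TAZ-CAMTA1, 38.3 in YAP5SA and 35.4 in YAP-TFE3 and no peak in the other lists.

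**Figure D3:**
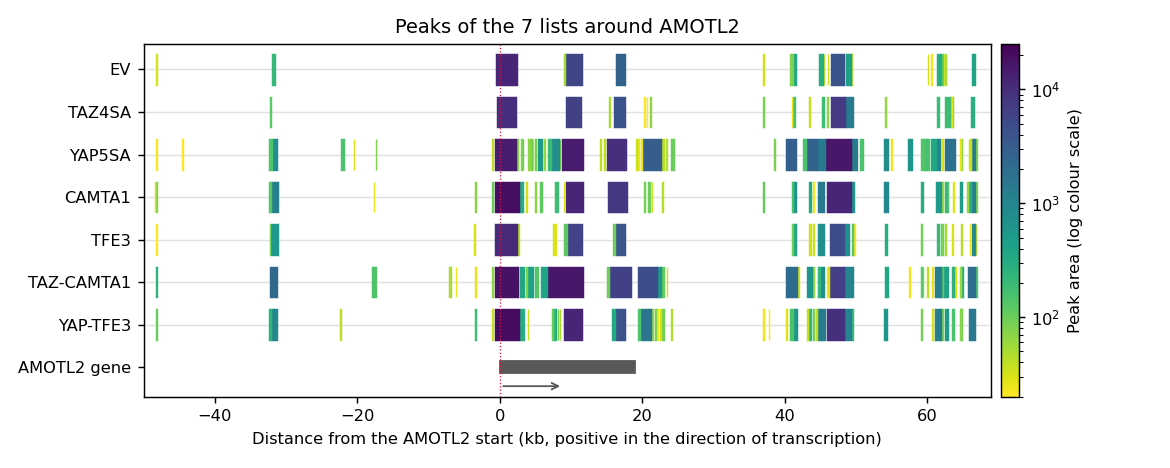
Peaks of the 7 lists in the AMOTL2 window, plotted by distance from the gene start in kb, with 1 row per list and colour giving the area of each peak on a log scale. The start, the gene body sites and the site 48.0 kb downstream are dark in all lists, and the space between them fills with further peaks in YAP5SA (56 peaks) and TAZ-CAMTA1 (46 peaks) compared with EV (23 peaks).

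Away from its start, AMOTL2 had far more open chromatin in some lists than in others. Peaks covered 12707 bases of the AMOTL2 window in EV, or 10.7% of it, and 12856 in TAZ4SA. They covered 15411 in TFE3, 21658 in CAMTA1, 22453 in YAP-TFE3, 30971 in TAZ-CAMTA1 and 32731 in YAP5SA, or 27.5% of the window. The YAP5SA value was 2.58 times that of EV, where the whole YAP5SA list covered 1.23 times the bases of the whole EV list. The TAZ-CAMTA1 value was 2.44 times EV, where the whole list covered 1.61 times. The ratio was 1.77 for YAP-TFE3, 1.70 for CAMTA1, 1.21 for TFE3 and 1.01 for TAZ4SA, with whole-list ratios of 1.48, 1.39, 1.03 and 0.748. For a background, 10567 tiles of 100 kb were used in which EV peaks covered at least 2 kb. The share of tiles with at least 2 times the EV bases was 3.82% in YAP5SA, 15.7% in TAZ-CAMTA1, 8.75% in YAP-TFE3, 6.32% in CAMTA1, 0.132% in TAZ4SA and 0.104% in TFE3. Of all tiles, 0.795% had a ratio as high as that of the AMOTL2 window in YAP5SA and 4.87% in TAZ-CAMTA1. The ANKRD1 window covered 3034 bases in EV and 6089 in YAP5SA, 2.01 times as many, which 3.79% of tiles reached. TAZ4SA was nearly as far out among its own tiles, with a ratio of 1.15 that 4.54% reached, and TFE3 had 1.39 (7.02%). The ratio was 1.54 in CAMTA1 (28.0%) and 1.46 in YAP-TFE3 (44.7%). In TAZ-CAMTA1 the ANKRD1 ratio was 1.31, below the median tile at 1.57, so that this list lay above its median tile around AMOTL2 and below it around ANKRD1. YAP5SA and TAZ-CAMTA1 also had longer lists, with 230886 and 236893 peaks against 171102 in EV. Equal numbers of peaks gave AMOTL2 ratios of 2.40 and 2.32. No whole-list or tile ratio at equal numbers is set beside them, so the part of list length in the covered bases cannot be read from these values.

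**Figure D4:**
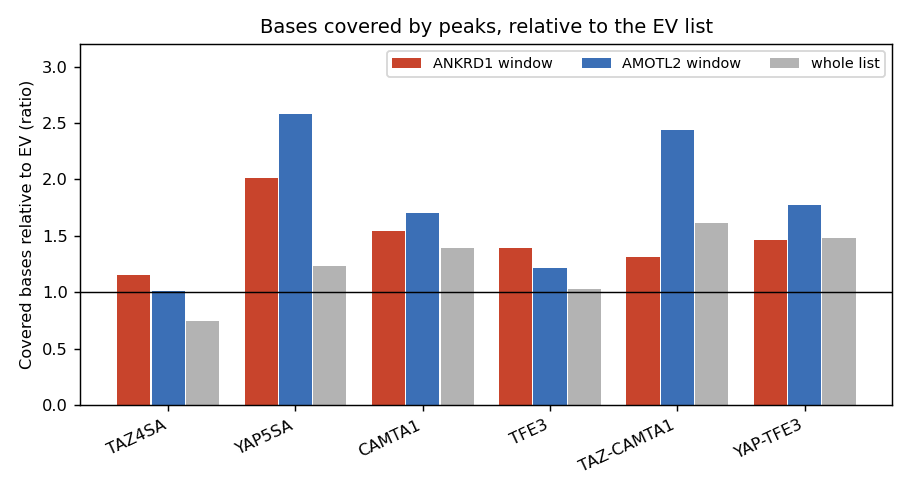
Bases covered by peaks in each list as a ratio to the EV list, for the ANKRD1 window, the AMOTL2 window and the whole list; the line marks equality with EV. The AMOTL2 bars of YAP5SA (2.58) and TAZ-CAMTA1 (2.44) exceed their whole-list bars (1.23 and 1.61), and the ANKRD1 bar of TAZ-CAMTA1 (1.31) is below its own.

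Most of the added bases around AMOTL2 lay in the gene body and downstream of it. In peaks of the gene body EV covered 3636 bases, YAP5SA 9283 and TAZ-CAMTA1 11128. In peaks downstream of the gene EV covered 5616, YAP5SA 18325 and TAZ-CAMTA1 14293, and the fewest lay in upstream peaks, with 555, 2057 and 2123 bases, although these also increased. A site without an EV peak lay just beyond the far end of the gene, from 134071312 to 134074631. EV and TFE3 had no peak there, TAZ4SA had an area of 110 and CAMTA1 of 226, and the area was 1926 in YAP-TFE3, 3088 in YAP5SA and 5449 in TAZ-CAMTA1. As deposited, the YAP5SA and fusion areas at this site were thus 1926 or more and those of the other lists at most 226. The scaled area was 2.59 in TAZ-CAMTA1, 2.31 in YAP5SA, 0.230 in TAZ4SA and 0.118 in CAMTA1. YAP-TFE3 lay between YAP5SA and TAZ4SA on that scale. YAP5SA and the fusions thus stayed the highest when scaled, but YAP-TFE3 exceeded TAZ4SA by a smaller factor than as deposited. Within the gene, the site 9.2 kb from the start, from 134082236 to 134087269, was open in every list. Its largest peak was 2249 bp wide in EV, 2099 in TAZ4SA, 3001 in YAP5SA and 5034 in TAZ-CAMTA1, and its area as deposited was 5797 in EV, 15073 in YAP5SA and 16453 in TAZ-CAMTA1. Scaled to EV, this site was 1.74 in TAZ4SA, 1.49 in YAP5SA and 1.03 in TAZ-CAMTA1, so that none passed 2-fold, whereas the areas as deposited gave 1.09, 2.60 and 2.84.

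The distal AMOTL2 site with the highest scaled area in any list lay 48.0 kb downstream of the start, from 134043787 to 134048163. Its area was 4559 in EV, 8630 in TAZ4SA, 17542 in YAP5SA, 12370 in CAMTA1, 5742 in TFE3, 7960 in TAZ-CAMTA1 and 10684 in YAP-TFE3. The summit lay within 9 bp in the 7 lists, so that the same position was the most open in each. The scaled ratio to EV was 3.03 in TAZ4SA and 2.20 in YAP5SA, and between 0.634 and 1.09 in the others. With areas as deposited YAP5SA led at 3.85, followed by CAMTA1 at 2.71 and YAP-TFE3 at 2.34, TAZ4SA was no longer past 2-fold at 1.89, and TAZ-CAMTA1 turned from 0.634 to 1.75. The gene body site 16.8 kb from the start had scaled ratios of 2.50 in TAZ4SA and 2.03 in YAP5SA, and between 0.578 and 1.22 in the rest. As deposited, YAP5SA was at 3.54 there, CAMTA1 at 2.92, TAZ-CAMTA1 at 2.49, YAP-TFE3 at 1.65 and TAZ4SA at 1.56. At both sites YAP5SA was thus past 2-fold on either scale and TAZ4SA only when scaled. The site 43.8 kb downstream, from 134049477 to 134050875, was largest in YAP5SA. Its area was 2922 in YAP5SA, against 670 in TAZ-CAMTA1, 387 in YAP-TFE3, 338 in CAMTA1, 68.6 in TFE3 and 37.3 in TAZ4SA, with no EV peak. The site 41.0 kb downstream, from 134052239 to 134053810, had areas of 3004 in YAP5SA and 2144 in TAZ-CAMTA1, and of 177 to 785 in the 5 other lists. Scaled to EV, this site was 3.02 in YAP5SA, 1.37 in TAZ-CAMTA1 and between 0.481 and 0.704 in the rest. As deposited, YAP5SA was at 5.27 and TAZ-CAMTA1 at 3.76, so that TAZ-CAMTA1 was past 2-fold only as deposited. The site 54.3 kb downstream, also without an EV peak, had areas of 935 in CAMTA1, 789 in YAP5SA and 63.6 in TAZ4SA, and after scaling YAP5SA, at 0.591, lay above CAMTA1, at 0.491. TAZ4SA and YAP5SA had the 2 highest scaled areas at 4 of the 10 AMOTL2 sites with a peak in all lists, and EV and TAZ-CAMTA1 the 2 lowest at 0 of them, against the 12.8% and 6.48% given above. With areas as deposited both counts were 0 of 10.

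Over the sites shared with EV, YAP5SA had the most 2-fold higher sites around AMOTL2, with scaled areas and with areas as deposited. Of the AMOTL2 sites with a peak in both lists, 9 of 13 were at least 2-fold above EV in YAP5SA (17.2% of all sites) and 4 of 11 in TAZ4SA (22.2%). The counts were 3 of 13 in TAZ-CAMTA1, against 17.9%, and 1 of 13 in CAMTA1, 1 of 12 in TFE3 and 1 of 13 in YAP-TFE3, none of them above the background of 15.9, 13.8 and 17.6%. Around ANKRD1 the counts were 4 of 5 in TAZ4SA, 3 of 6 in YAP5SA, 3 of 5 in TFE3, 2 of 6 in CAMTA1, 2 of 6 in YAP-TFE3 and 0 of 7 in TAZ-CAMTA1. Sites at or below 1/2 of EV were counted too. Around ANKRD1 there were 3 in YAP-TFE3 (17.1% of all sites), 2 in TAZ-CAMTA1 (13.8%) and 0 in TAZ4SA (19.2%), YAP5SA (23.5%), CAMTA1 (19.0%) and TFE3 (13.4%). Around AMOTL2 there were 3 in YAP-TFE3, 2 each in YAP5SA and TAZ-CAMTA1, 1 each in TAZ4SA and CAMTA1 and 0 in TFE3. YAP-TFE3 therefore had more sites past 2-fold below EV than above it in both windows when scaled. With areas as deposited the 2-fold higher counts were 2 of 5 around ANKRD1 and 2 of 11 around AMOTL2 in TAZ4SA, against 12.8% of all sites, and 4 of 6 and 10 of 13 in YAP5SA, against 31.8%. They were 4 of 6 and 9 of 13 in CAMTA1 (51.6%), 3 of 5 and 3 of 12 in TFE3 (19.5%), 3 of 7 and 9 of 13 in TAZ-CAMTA1 (65.1%), and 3 of 6 and 8 of 13 in YAP-TFE3 (63.6%). Of the YAP5SA sites around AMOTL2, 26 of 39 had no EV peak (66.7%, against 49.9% of all YAP5SA sites), and of the TAZ-CAMTA1 sites 20 of 33 (60.6% against 50.6%). The other lists had 15 of 28 in CAMTA1 (background 45.7%), 13 of 26 in YAP-TFE3 (50.1%), 6 of 18 in TFE3 (24.3%) and 3 of 14 in TAZ4SA (37.1%). Around ANKRD1 the numbers without an EV peak were small, from 1 of 6 sites in TFE3 to 6 of 12 in YAP5SA. Among the sites without an EV peak, 20 had none in CAMTA1 or TFE3 either, which is 40.8% of the AMOTL2 sites and near the 41.6% of all sites. YAP5SA had a peak in 16 of them and was alone in 10, TAZ-CAMTA1 had 7 and YAP-TFE3 had 4, while TAZ4SA had 0. The shares of single lists among such sites of the genome were not computed, and the lists differ in length, with 230886 peaks in YAP5SA and 152702 in TAZ4SA. Whether these counts per list are unusual is therefore not known. Most of the 20 sites were weak, with areas between 20.3 and 614, and the largest was a YAP5SA site 57.6 kb downstream of the start.

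**Figure D5:**
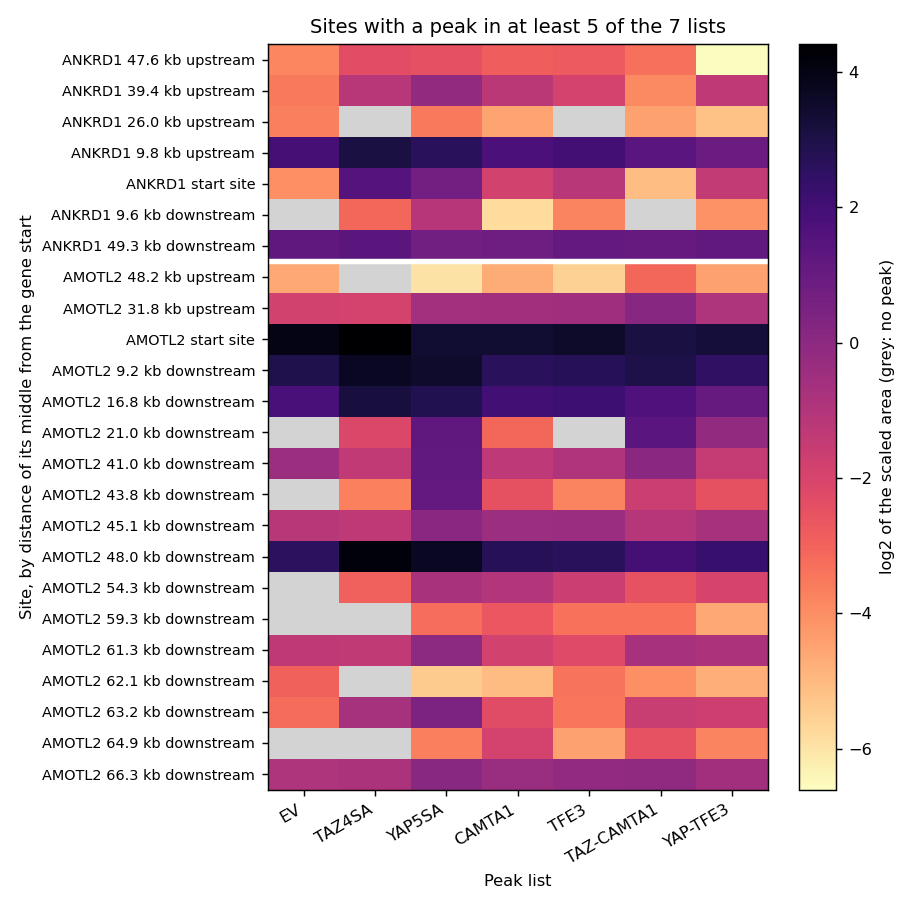
Scaled area (log2) of the sites with a peak in at least 5 of the 7 lists, with sites of the ANKRD1 window above those of the AMOTL2 window and 1 column per list; grey marks a list with no peak. The AMOTL2 start is dark across all columns, the ANKRD1 start is pale in EV and TAZ-CAMTA1, and the AMOTL2 site just beyond the far end of the gene is absent in EV and TFE3 and darkest in YAP5SA and TAZ-CAMTA1.

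By overlap of covered bases, the nearest list to TAZ-CAMTA1 changed with the locus. By the Jaccard index, the bases covered by both lists as a share of those covered by either, TAZ-CAMTA1 was nearest to EV in the ANKRD1 window, at 0.748, against 0.543 over the whole lists. In the AMOTL2 window it was nearest to YAP5SA, at 0.649, and its index with EV was 0.393. Over the whole lists it was nearest to YAP-TFE3, at 0.681. YAP5SA and TAZ4SA, the activated coactivators, had an index of 0.527 around ANKRD1 and 0.384 around AMOTL2. YAP-TFE3 was nearest to TFE3 around ANKRD1, at 0.767, and to CAMTA1 around AMOTL2, at 0.696. The windows hold few peaks, so these indices rest on a small number of wide sites. The index also cannot exceed the smaller covered total as a share of the larger. Around AMOTL2, EV covered 12707 bases and TAZ4SA 12856, against 30971 in TAZ-CAMTA1 and 32731 in YAP5SA. The indices thus partly restate the covered bases given above and do not by themselves show that different sites were open.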

How the data were processed

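Per the labels, 20 ATAC-seq libraries of SW872 cells fall into 7 vector groups. The authors deposited 1 peak list per vector, and no column lacks a group. The study's methods give adapter removal by NGmerge, alignment by BWA-MEM and peak calling by Genrich without PCR duplicates or blacklisted regions, replicate by replicate; how the libraries of a list were combined is not given in the sources used here. The processing notes of the submitters name Bowtie 0.12.2 and mm8 instead. The coordinates were taken as hg19: on 14 of 23 chromosomes a peak lies past the end of hg38, and contig names are those of GRCh37. The deposited signal is the area of a peak, and the deposited −log10 p is that of its summit. Depth is unknown.

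Peaks of all lists overlapping by 1 bp or more were merged into 372133 sites, and a site's area in a list is the sum over its peaks. No hg19 annotation was at hand, so the start and extent of each gene were taken from the window by removing 50 kb on each side (accurate to about 1 kb), with the strand from RefSeq. Sites within 1 kb of the start are start sites. Ratios were called past 2-fold. Sites named are the start sites, the 5 distal sites of a window with the largest scaled area, the 3 largest without an EV peak and those with a peak in TAZ4SA, YAP5SA or a fusion and in none of EV, CAMTA1 and TFE3. The members, lists and rules were chosen with earlier results of these data known. The comparisons with full-length proteins, the tiles, the within-list shares, the order of lists and the summit positions were added after the peaks of the windows had been seen. The fusion pairs, 2-fold counts and orders with areas as deposited were also added after seeing the data. Site merging, scaling and ratios were tested on simulated data. Analyses used Python 3.11.15, pandas 2.3.3 and numpy 2.4.6. The planned list of other YAP/TAZ target genes was not run without an hg19 annotation.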

Additional observations from a re-analysis of the deposited data

How the results depend on the processing

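Each vector had 1 list of unknown depth, so the choice of scaling weighed most. For the areas of the start sites relative to EV, dividing by the summed area of the list or taking the largest peak moved none of the 12 ratios by more than 1.5 times. Areas as deposited gave, for the ANKRD1 start, 29.2 in TAZ4SA, 46.1 in YAP5SA, 11.2 in CAMTA1, 16.9 in YAP-TFE3 and, turning the direction, 1.29 in TAZ-CAMTA1, and for the AMOTL2 start 0.850 in TAZ4SA, 1.19 in YAP5SA, 1.67 in CAMTA1, 1.53 in TAZ-CAMTA1 and 1.71 in YAP-TFE3. Summit −log10 p, which is not scaled, gave for the ANKRD1 start 1.98 in TAZ4SA, 2.24 in YAP5SA, 1.42 in CAMTA1, 1.32 in TFE3, 1.58 in YAP-TFE3 and, again turned, 1.02 in TAZ-CAMTA1, and for the AMOTL2 start 1.28 in YAP5SA, 1.33 in CAMTA1, 1.25 in TAZ-CAMTA1 and 1.32 in YAP-TFE3. When peaks needed a −log10 p of 4 the EV list has no peak at the ANKRD1 start and no ratio could be formed. Of the distal ratios past 2-fold, that of YAP-TFE3 to EV turned at the ANKRD1 site 9.8 kb upstream, to 1.42 with areas as deposited and 1.28 by summit, and at the AMOTL2 site 41.0 kb downstream, to 1.38 and 1.16. Among all 48 distal ratios, areas as deposited moved 38 by more than 1.5 times besides these 2. Of the 48, 18 lay below EV when scaled and above it as deposited, among them TAZ-CAMTA1 at the ANKRD1 site 9.8 kb upstream (0.677 to 1.86) and the AMOTL2 site 48.0 kb downstream (0.634 to 1.75), YAP-TFE3 at the site 16.8 kb downstream (0.578 to 1.65) and CAMTA1 at the site 41.0 kb downstream (0.550 to 1.37), and 1 lay the other way. Taking the largest peak gave 2.06 for YAP-TFE3 at the ANKRD1 site 49.3 kb downstream, in place of 0.970. For the fusions against full-length proteins, areas as deposited gave at the ANKRD1 start 0.0444 for TAZ-CAMTA1 to TAZ4SA, 0.368 for YAP-TFE3 to YAP5SA and 1.89 for YAP-TFE3 to TFE3, and at the AMOTL2 start 1.80 (turned), 1.43 and 1.90. They changed the numbers of sites past 2-fold above EV to 2 in TAZ4SA, 4 in CAMTA1 and 3 in TAZ-CAMTA1 around ANKRD1 and to 2 in TAZ4SA, 9 in CAMTA1, 3 in TFE3, 9 in TAZ-CAMTA1 and 8 in YAP-TFE3 around AMOTL2. The numbers past 2-fold below EV became 0 in TAZ-CAMTA1 and 1 in YAP-TFE3 around ANKRD1, and 1 in YAP5SA and 0 in CAMTA1, TAZ-CAMTA1 and YAP-TFE3 around AMOTL2. Sites where TAZ4SA and YAP5SA were highest fell to 1 and 0.

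The covered bases relative to EV moved by no more than 1.5 times with stricter peaks, equal numbers of peaks (152702 per list) or 25 kb each side, in both windows and all 6 lists. Counts of distal sites without an EV peak moved in part. Under that same minimum of 4 they were 1 in TAZ4SA, 0 in CAMTA1 and 1 in TAZ-CAMTA1 around ANKRD1, and 3 in TFE3 around AMOTL2. With equal numbers of peaks, which removes the weakest peaks of the longer lists by construction, they were 0 in CAMTA1, 1 in TAZ-CAMTA1 and 1 in YAP-TFE3 around ANKRD1, and 16 in YAP5SA, 8 in CAMTA1, 12 in TAZ-CAMTA1 and 7 in YAP-TFE3 around AMOTL2. With an overlap of 50% of both peaks they were 5 in CAMTA1, 2 in TFE3 and 6 in YAP-TFE3 around ANKRD1, and 7 in TAZ4SA around AMOTL2. The cause of these changes was otherwise not tested. No paired analysis was possible because single libraries have no values in the peak lists, and for that reason none could be left out.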
